A study of Mus musculus with 4 samples.

Results

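MHC class II barcodes are cell barcodes of 4 single-cell RNA sequencing libraries of sorted regulatory T (Treg) cells that carried RNA of the MHC class II genes or of their invariant chain. They were chosen from measured counts in every library: 500 or more genes, 10% or less mitochondrial UMIs (unique molecular identifiers, the counted RNA molecules), 8 or more UMIs summed over Cd74, H2-Aa, H2-Ab1 and H2-Eb1, and fewer than 3 UMIs summed over the macrophage genes Lyz2, C1qa, C1qb and C1qc. The rule found 221 of 20294 filtered barcodes, 1.09% (exact 95% interval 0.950 to 1.241%). Members with 2 or more UMIs of the B cell genes Cd79a and Ms4a1 are called the B cell class, and members with a UMI of Siglech (a plasmacytoid dendritic cell receptor) or Fscn1 (fascin, an actin bundling protein of mature dendritic cells) are given apart. The working name of these barcodes, dendritic and B cells, held for a minority: 33 were in the B cell class, 9 had Siglech, 10 had Fscn1, none had marks of both kinds, and 169 had neither, which are called unmarked below. T cell RNA (2 or more UMIs of Cd3d, Cd3e and Cd3g) was counted in 170 of the 221, and the Treg regulator Foxp3 in 114. Those were 76.9 and 51.6% of members, against 97.3 and 67.9% of the 20073 other filtered barcodes.

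The 4 groups were 12-day liver, 12-day spleen, 7-week liver and 7-week spleen, with 1 library each, all from C57BL/6 mice that carry a Foxp3GFP tag. The 12-day mice were Foxp3GFP-Cre Rosa26loxP-Stop-loxP-YFP, the labels give no further allele for the 7-week mice (whose stage label reads "aged"), and they do not say how many mice were pooled. CD4+ cells were enriched on magnetic beads and CD4+ Foxp3GFP+ cells were then sorted, a gate meant for Treg cells. Every barcode described here comes from that sort, and whether the cell of each met the gate was not tested. With 1 library per group no comparison has replicates: no p-value is given, ratios describe these libraries, and tissue, age and library cannot be told apart.

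MHC class II molecules are pairs of an alpha and a beta chain that show peptides from ingested proteins to CD4+ T cells. In the mouse, H2-Aa and H2-Ab1 encode the chains of I-A, and H2-Eb1 the beta chain of I-E. C57BL/6 mice lack the I-E alpha chain, so their I-E beta RNA has no partner. Cd74, the invariant chain, fills the peptide groove until the molecule reaches the endosome, H2-DM exchanges its last fragment for peptide, and H2-O restrains H2-DM. B cells and dendritic cells make these proteins at all times, under the coactivator Ciita, whereas mouse T cells make few of them. Plasmacytoid dendritic cells are the type I interferon producers of blood and lymphoid organs and share several genes with B cells.

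The H2 genes of this pathway lie close together on chromosome 17, and the region before each start holds conserved boxes that assemble the factors recruiting Ciita. The regions of 4 genes are shown. H2-Aa and H2-Eb1 set the members, while H2-DMb1 and H2-DMb2 did not, and counts of the latter by class are given below. The sequences are from RefSeq on GRCm38.p6, 5′ to 3′ on the gene's strand, each the 120 bases before the start, with the Y box core ATTGG (or CCAAT, its reverse) in capitals. They span chr17:34287824-34287943 on the minus strand for H2-Aa, chr17:34305747-34305866 on the plus strand for H2-Eb1, chr17:34153071-34153190 on the plus strand for H2-DMb1 and chr17:34145129-34145248 on the plus strand for H2-DMb2.
H2-Aa: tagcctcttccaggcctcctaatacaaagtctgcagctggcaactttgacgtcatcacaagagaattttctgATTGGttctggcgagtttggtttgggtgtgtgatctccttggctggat
H2-Eb1: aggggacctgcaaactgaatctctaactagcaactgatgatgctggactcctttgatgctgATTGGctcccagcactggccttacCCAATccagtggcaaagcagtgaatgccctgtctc
H2-DMb1: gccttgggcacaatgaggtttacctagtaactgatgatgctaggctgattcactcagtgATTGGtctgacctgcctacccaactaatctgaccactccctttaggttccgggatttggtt
H2-DMb2: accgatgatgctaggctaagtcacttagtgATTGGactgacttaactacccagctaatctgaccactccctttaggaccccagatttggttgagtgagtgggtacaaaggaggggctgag
ATTGG, searched on both strands, was present in 37.4% of all 32851 promoter windows of 300 bases, so a match is common. It was present in 8 of the 9 windows of the 8 H2 genes with a window, and in 3 of 8 windows of 5 other listed pathway genes (Ctss, Lgmn, Ifi30, Marchf1 and Cst3), which lie on other chromosomes. GCAACAG, part of the X box, was present in 5.48% of all windows, in 0 of those 9 and in 1 of those 8. Only these exact letters were searched, so a window without them is not shown to lack an X box. A match is a description of letters, not a binding site.

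**Figure D1:**
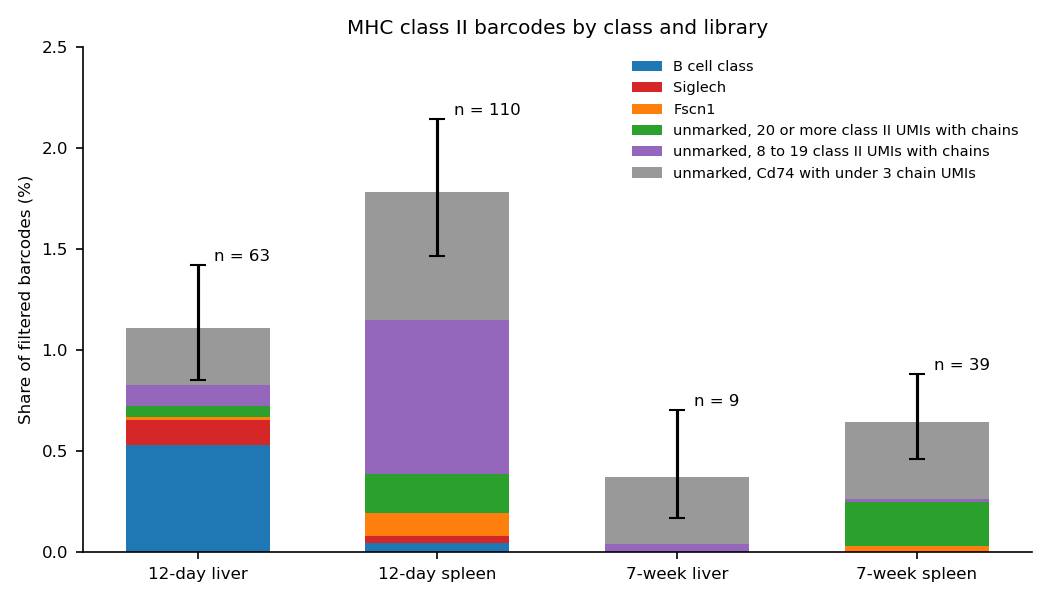
Share of filtered barcodes (%) that met the MHC class II rule in each of the 4 libraries, stacked by class; the bars on top are exact 95% binomial intervals of the total, and n is the number of members. The B cell class made up 30 of the 63 members of the 12-day liver, and the 2 classes of unmarked barcodes with fewest class II UMIs 86 of the 110 members of the 12-day spleen.

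Members were 63 of 5668 filtered barcodes in the 12-day liver (1.11%, 0.855 to 1.42%) and 110 of 6178 in the 12-day spleen (1.78%, 1.47 to 2.14%). They were 9 of 2424 in the 7-week liver (0.371%, 0.170 to 0.704%) and 39 of 6024 in the 7-week spleen (0.647%, 0.461 to 0.884%). Within each tissue the intervals of the 12-day and 7-week libraries did not overlap. These and all later intervals cover counting error only. In barcodes with 1500 or more UMIs the 12-day spleen fell to 54 of 5543 (0.974%, 0.733 to 1.27%), which overlaps the 7-week spleen at 38 of 5532 (0.687%, 0.487 to 0.942%), whereas the livers stayed apart at 1.26% (0.964 to 1.61%) and 0.450% (0.206 to 0.852%). That limit does not match depth between ages. From 3000 to under 6000 UMIs the livers had 0.745% at 12 days and 0.753% at 7 weeks, and the spleens 0.272 and 0.691%. From 6000 UMIs upward the livers had 2.06 and 1.27%, and the spleens 2.07 and 2.75%. In both bins below 3000 UMIs the 12-day share was higher in each tissue. The part of depth in the difference between ages was not tested. Members with 20 or more class II UMIs numbered 39, 23, 0 and 15 in the order 12-day liver, 12-day spleen, 7-week liver and 7-week spleen. None of 2424 in the 7-week liver allows a share of up to 0.124%, taking 3 counts as the limit that a count of 0 allows (the exact 95% upper bound is 0.152%).

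The filtered libraries had median depths of 4444.5, 4540.5, 2663 and 2936.5 UMIs per barcode in that order, and between 81.2 and 87.6% of their barcodes had no class II UMI. The highest members reached 517, 474, 24 and 274 class II UMIs. Near the limit the rule took T cell barcodes: of 68 members with 8 or 9 class II UMIs 61 had T cell RNA and 16 had 3 or more UMIs of the 3 chains, and of 112 barcodes just outside with 6 or 7, 111 had T cell RNA and 9 had 3 or more chain UMIs. The median depths of these sets were 5392 and 6421 UMIs. The limit on macrophage genes kept out 10 barcodes, of which 9 had T cell RNA. Pairs of libraries shared 18 to 54 barcode sequences, and no barcode was a member in 2 libraries.

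Set against the other filtered barcodes of the same library, all members together in the 12-day liver had 287 genes that were 2-fold or more higher and 172 that were 2-fold or more lower, which was 5.39% and 3.23% of 5320 genes at 25 or more counts per 1000000 UMIs (CPM) in the higher set. In the 12-day spleen these shares were 3.41% and 3.12%, and in the 7-week spleen 7.52% and 7.04%. In the 7-week spleen 417 genes were higher and 390 lower, a balance that turned to 279 and 519 under TMM scaling. Because members are a mixture, each class is described on its own. Of 13 listed genes of class II processing, 10, 7 and 10 were at least 2-fold higher in the members of the 12-day liver, 12-day spleen and 7-week spleen, and 0 lower in each.

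**Figure D2:**
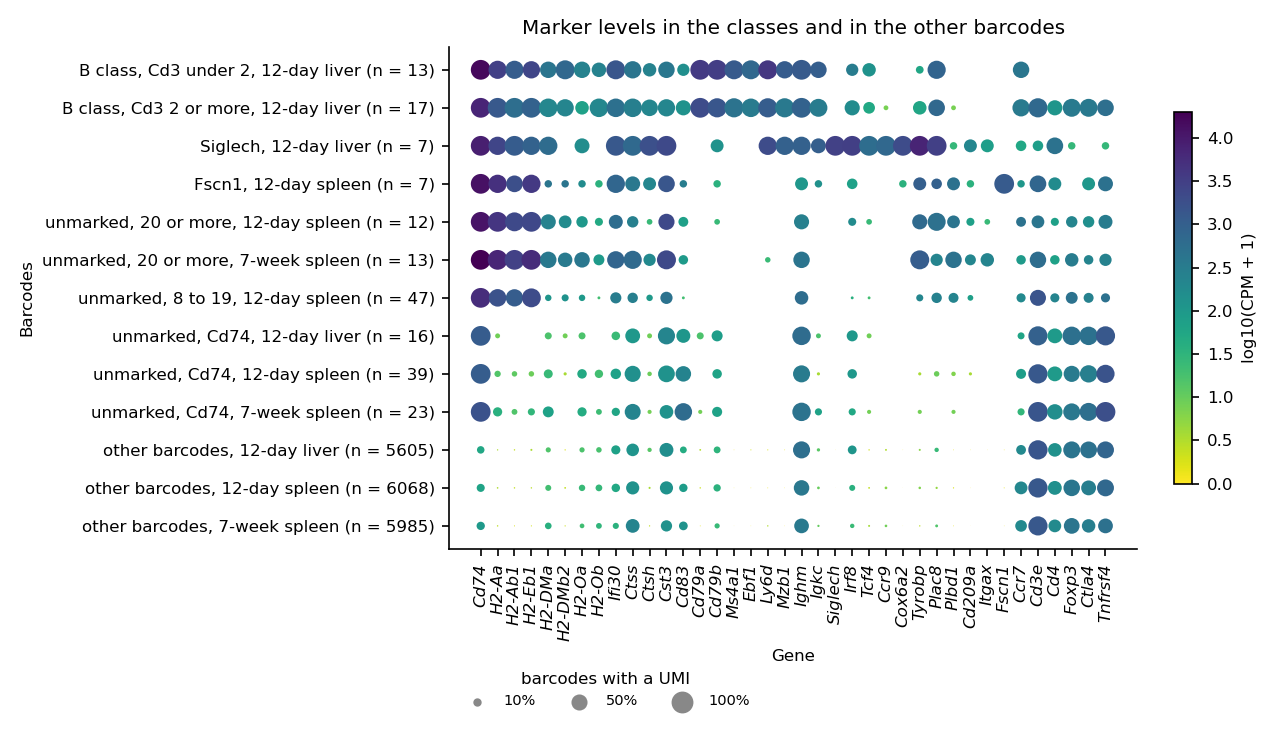
Levels of 38 genes in the classes of MHC class II barcodes and in the other filtered barcodes; colour gives log10(CPM + 1) of summed UMIs and dot size the share of barcodes with a UMI. Cd79a and Ms4a1 mark the B cell class and Siglech its own row by construction, while Ly6d, Ebf1, Cox6a2 and Tyrobp were not used by the rule.

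The B cell class was a population of the 12-day liver. It held 30 barcodes there (0.529% of filtered barcodes, 0.357 to 0.755%), 3 in the 12-day spleen (0.0486%, 0.0100 to 0.142%) and none in either 7-week library, where 0 of 2424 and 0 of 6024 allow shares of up to 0.124% and 0.0498% by the limit of 3 counts (exact upper bounds 0.152 and 0.0612%). The 30 had a median of 6764 UMIs and 92.5 class II UMIs, with a lowest value of 26, well above the limit of 8 that chose them. In the 12-day liver Cd74 stood at 9573 CPM (9155 to 10006) in this class and 53.2 CPM in the 5605 other barcodes. H2-Aa stood at 1763 against 2.51 CPM, H2-Ab1 at 719 against 1.50 and H2-Eb1 at 1345 against 2.51. These values, and Cd79a at 2492 against 2.09 CPM, follow from the rule.

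Genes the rule did not use gave the same cells a B cell profile. Of 20 listed B cell genes, 19 reached 25 CPM and 18 were at least 2-fold higher in the 12-day liver class, where 8.55% of 5319 genes were higher and 10.7% lower. The median log2 ratio of the 19 was 9.39, against -0.08 over all genes. Ebf1, a transcription factor that sets B cell identity, was counted in 27 of 30 barcodes at 442 CPM, against 1.08 CPM in the others. Cd79b, the partner of Cd79a in the B cell receptor, was counted in 29 of 30 (1914 against 30.5 CPM). Ly6d, a surface protein of the B lineage, had 396 UMIs in 28 of 30, a ratio of 2561 (1683 to 4088). Mzb1, a chaperone for immunoglobulin secretion and assembly, had 119 UMIs in 26 of 30, a ratio of 1475 (814 to 2936). Pax5 had only 7 UMIs, in 7 barcodes.

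The class II pathway around the rule genes was also higher in this class. Of 13 listed pathway genes, 10 reached 25 CPM, 8 were at least 2-fold higher and 0 lower, with a median log2 ratio of 3.21. H2-DMb2, a beta chain of the peptide exchange factor, stood at 350 CPM (274 to 440) against 0.784, and H2-DMa, its alpha chain, at 262 against 14.2. H2-Oa and H2-Ob, the chains of its inhibitor, stood at 117 against 15.5 and 214 against 17.1 CPM. Ifi30, a thiol reductase of the endosome, stood at 763 against 67.1 CPM, and the cathepsin Ctsh at 219 against 12.8. Ciita itself had 5 UMIs in 4 of 30 barcodes. Cd40, the receptor through which helper T cells stimulate B cells, had 14 UMIs in 12 of 30 (68.0 against 0.163 CPM).

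The stage of these cells was read from a second set of genes. Early B cell genes of the bone marrow (Rag1, Rag2, Dntt, Igll1 and Vpreb1) had 0 UMIs in the 30 barcodes. Vpreb3, a chaperone of immature and transitional B cells, had 28 UMIs in 12 of 30 (136 against 0.882 CPM, and 89.2 without the barcode that held 10 of them), and Cd24a, a surface protein high on transitional B cells, stood at 418 against 5.68 CPM. Fcer2a, the low affinity IgE receptor of mature follicular cells, had 27 UMIs in 9 of 30. Ighd had UMIs in 8 and Ighm in all 30. Ighm RNA was also present in 74.7% of the other barcodes, at 567 CPM against 1010 in the class, so a single Ighm UMI marks no B cell here. Of 10 listed plasma cell genes 4 reached 25 CPM and 3 were at least 2-fold higher (Mzb1, which B cells also express, and the lambda constant genes Iglc1 and Iglc2), while Sdc1 had 0 UMIs and Jchain 1.

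Immunoglobulin light chain variable segments differed between these barcodes. In the 12-day liver 28 of the 30 had 10 or more light chain variable UMIs; 22 had at least 90% of them in kappa segments and 5 in lambda segments. The 22 had 18 different leading kappa segments, and the 5 had 2 different leading lambda segments. A single segment held at least 90% in 21 of the 28. Of 21 barcodes with 10 or more heavy chain variable UMIs, 17 had at least 90% in 1 segment. The 3 barcodes of the 12-day spleen had 167, 130 and 102 class II UMIs, 65 Cd79a UMIs together, and 1 heavy chain segment each at that share. Of these, 2 were kappa at that share, and the third had 63 UMIs of its leading kappa segment and 44 of its leading lambda segment.

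The 12-day liver B cell class was split by its Cd3 UMIs. In 13 barcodes with fewer than 2 Cd3 UMIs the median depth was 2950 UMIs, none had a Foxp3 or a Cd4 UMI, and the 12 T cell genes summed to 0.0561 UMIs per 1000. In 17 barcodes with 2 or more Cd3 UMIs the median depth was 8126 UMIs, 14 had Foxp3, 10 had Cd4, and the T cell genes summed to 4.20 per 1000, against 6.98 in the other barcodes (median depth 4430). The Cd3 genes are among the 12, so the difference in these sums is partly fixed by the split. Foxp3 and Cd4 were not used for it. Both kinds had similar class II counts, with medians of 98 and 88 UMIs, but at these unlike depths the median levels were 33.7 and 10.2 per 1000 UMIs. B cell genes outside the rule summed to 15.7 per 1000 in the first, 7.03 in the second and 1.12 in the other barcodes. In CPM, the 13 had Ly6d at 4169 and Ebf1 at 729 CPM, and the 17 had 1135 and 341. Foxp3 stood at 354 CPM in the 17, against 440 in the other barcodes, and Ctla4, an inhibitory receptor of Treg cells, at 368 against 517. Scrublet's highest scores marked 2 of the 17 and 0 of the 13 as likely doublets. How much of the second kind came from a B cell and a T cell under 1 barcode was not tested. Over the whole class 0 of 12 T cell genes were at least 2-fold higher and 8 lower, and 11 of 14 proliferation genes were lower, among them Mki67 and Top2a.

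**Figure D3:**
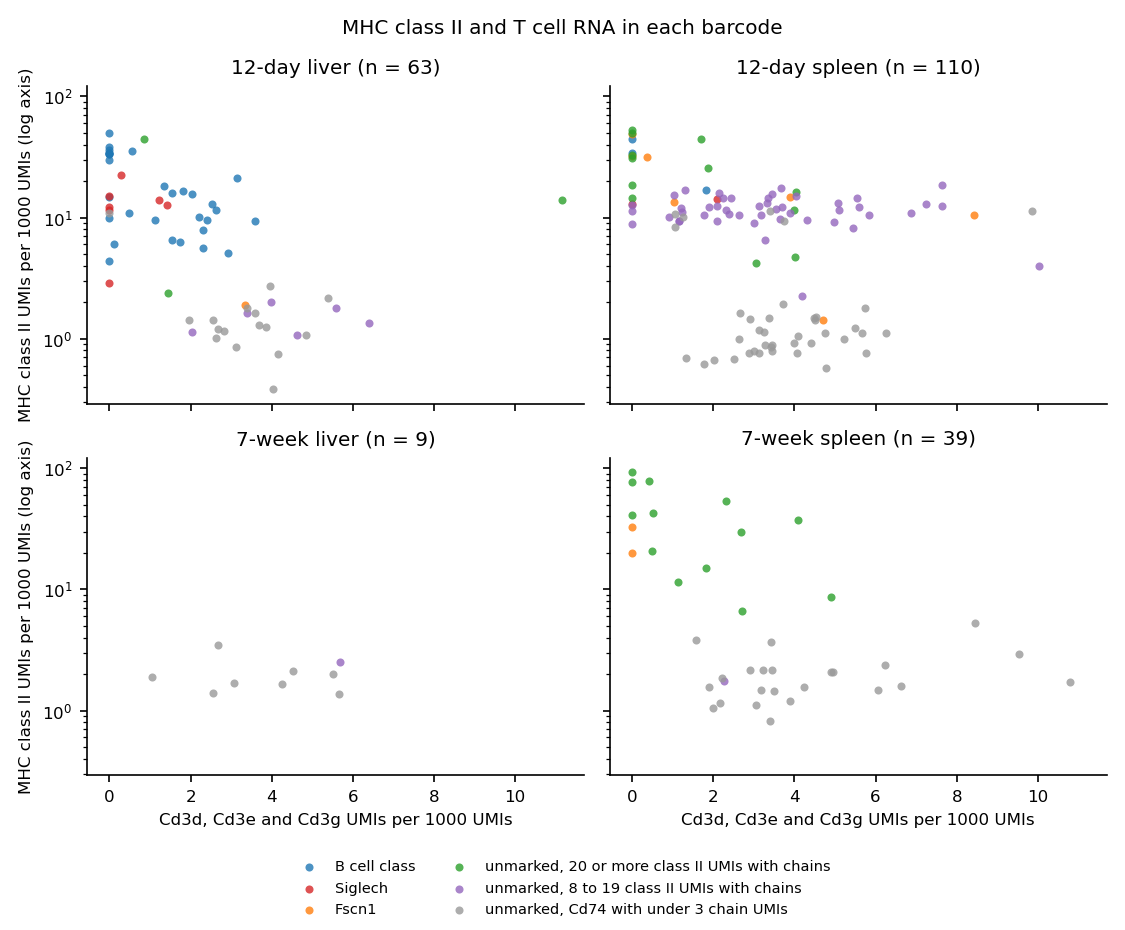
Class II UMIs per 1000 UMIs (log axis) against Cd3d, Cd3e and Cd3g UMIs per 1000 UMIs for each member, 1 panel per library, coloured by class. B cell class barcodes of the 12-day liver lie both at 0 and among T cell levels, and all 9 members of the 7-week liver hold T cell RNA.

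The 9 Siglech barcodes had the gene profile of plasmacytoid dendritic cells. There were 7 in the 12-day liver, 2 in the 12-day spleen and none at 7 weeks. The 7 had 15, 18, 23, 9, 15, 26 and 6 Siglech UMIs, far above the single UMI that the rule asked for, and 158, 14, 61, 91, 57, 72 and 54 class II UMIs. The 2 spleen barcodes had 22 and 19 Siglech UMIs and 164 and 83 class II UMIs. Siglech stood at 2971 CPM in the liver 7 and 0.163 CPM in the other barcodes. Of 17 further plasmacytoid genes on the list, all reached 25 CPM and all were at least 2-fold higher in the 7, where 29.1% of 6749 genes were higher and 25.2% lower, with a median log2 ratio of 6.95 against 0.17 over all genes. At this depth 25 CPM stands for 0.942 UMIs in the 7 barcodes together, so the values below are mostly of genes with many UMIs.

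Summed over the 17 genes, each of the 7 barcodes had between 18.6 and 42.5 UMIs per 1000, and the other barcodes had 0.415. Bst2, a tethering protein that marks plasmacytoid cells in unstimulated mice, stood at 5253 CPM against 84.6. Irf8, a transcription factor they require, stood at 3130 against 112 CPM, and Tcf4, which specifies them, at 610 against 1.01. Ccr9, a homing receptor, stood at 743 against 2.29 CPM. Cox6a2 had 79 UMIs in 7 of 7 (2096 against 0.131 CPM), and Klk1 had 39 UMIs in 5 of 7 with none in the 5605 other barcodes. Tyrobp, a signalling adaptor through which Siglech acts, had 281 UMIs (7455 against 4.90 CPM). For nucleic acid sensing, Tlr7 had 9 UMIs in 5 of 7, of which 1 barcode held 4, and its chaperone Unc93b1 stood at 1035 against 21.0 CPM. The 2 spleen barcodes had 59 Klk1 UMIs, 52 of them in 1, and the 17 genes summed to 23.5 per 1000 in them.

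Of 13 listed class II pathway genes 9 reached 25 CPM in the comparison of the 7 liver barcodes with the others, 7 were at least 2-fold higher and Cd83 was lower, with a median log2 ratio of 3.86. H2-DMb2 and H2-Ob had 0 UMIs in the 7, and H2-DMb1 had 7 UMIs in 4 of them, while H2-DMa stood at 637 CPM. In the B cell class H2-DMb2 stood at 350 CPM, H2-Ob at 214 and H2-DMb1 at 19.4, with 4 UMIs in 3 of 30. H2-DMb1 and H2-DMb2 are close copies of each other, as are the lambda constant genes and the replication histones, so how counts fell between such copies is uncertain. Ctsh stood at 1751 CPM in the Siglech barcodes and 219 in the B cell class, and Cst3, a cysteine protease inhibitor abundant in dendritic cells, at 2255 against 257 in the B cell class. Cd74 stood at 8808 CPM and H2-Aa at 2573, with H2-Aa counted in 6 of 7. The difference between the classes was not counted gene by gene, since fewer than 10 barcodes were in the smaller one. Ly6d, Mzb1 and the lambda constant gene Iglc3 were shared: Ly6d had 78 UMIs in 6 of 7 Siglech barcodes, Mzb1 36 in 6 of 7 and Iglc3 70 in 7 of 7. No heavy chain variable UMI was counted in any of the 7, and 6 had no light chain variable UMI either.

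T cell RNA was low in most Siglech barcodes, with Cd4 as an exception. Cd3 UMIs were 2, 0, 0, 8, 0, 0 and 6 in the liver 7 and 24 and 0 in the spleen 2. Of 12 T cell genes 8 were at least 2-fold lower in the 7 and Cd4 alone was higher, with 18 UMIs in 5 of 7 (478 against 140 CPM). One barcode, which also had 8 Cd3 UMIs and a Foxp3 UMI, held 9 of the 18, and without it the level was 289 CPM. Mouse plasmacytoid dendritic cells are known to carry CD4, a protein that the beads and the sort selected. The sort also selected Foxp3GFP, and how these barcodes came through it was not tested. Of 10 Treg genes 9 were lower, with a median log2 ratio of -4.51, and Foxp3 had UMIs in 1 of 7. All 14 proliferation genes were lower.

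Fscn1 barcodes were few and mixed. The 12-day spleen had 7, with 1, 1, 6, 1, 22, 2 and 1 Fscn1 UMIs, 10, 13, 89, 15, 37, 38 and 474 class II UMIs and depths from 950 to 10605 UMIs. The barcode with 22 Fscn1 UMIs also had 3 UMIs of Ccr7, the receptor that guides mature dendritic cells to lymph nodes, and 4 of Ccl22, a chemokine that attracts Treg cells. Together the 7 had Ifi30 at 23 UMIs in 6 of 7, a ratio of 15.3 (9.70 to 23.1) to the other barcodes, Cst3 at 41 UMIs in 5 of 7 and Tyrobp at 30 UMIs in 3 of 7. Single barcodes held much of each, and without the barcode with most UMIs of the gene Ifi30 moved from 803 to 367 CPM, Cst3 from 1431 to 509 and Tyrobp from 1047 to 262. Of 19 listed mature dendritic cell genes, 16 reached 25 CPM and 12 were at least 2-fold higher, where 27.2% of all genes were higher and 24.9% lower and 25 CPM stands for 0.717 UMIs in the 7 together. The 7-week spleen had 2 such barcodes, with 2 and 1 Fscn1 UMIs, 59 and 52 class II UMIs and no Cd3 UMI. The 12-day liver had 1, with 5 Fscn1 UMIs, 9 class II UMIs and 16 Cd3 UMIs. At 2 or more UMIs of Siglech or Fscn1 the dendritic class of the 12-day spleen fell from 9 to 5 barcodes and that of the 7-week spleen from 2 to 1.

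The 169 unmarked barcodes were split after their values were seen, by the 3 chain genes and by the class II count, as the plot of Cd74 against the chains shows. With 3 or more chain UMIs and 20 or more class II UMIs there were 28: 3 in the 12-day liver, 12 in the 12-day spleen and 13 in the 7-week spleen. With 3 or more chain UMIs and 8 to 19 class II UMIs there were 55, of which 47 were in the 12-day spleen. With fewer than 3 chain UMIs there were 86, in which the class II count was nearly all Cd74.

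The unmarked barcodes with many class II UMIs carried several genes of myeloid and conventional dendritic cells, while other listed genes of these cells were absent. The 13 of the 7-week spleen had between 23 and 274 class II UMIs with a median of 118, or 37.2 per 1000 UMIs. Tyrobp was counted in 12 of 13 (1132 against 1.80 CPM), a ratio of 627 (400 to 993). Plbd1, a phospholipase of conventional dendritic cells, had 21 UMIs in 9 of 13, Alox5ap, which activates 5-lipoxygenase, 25 UMIs in 12 of 13, and Fcer1g, another signalling adaptor, 25 UMIs in 10 of 13. Cst3 had 97 UMIs in 12 of 13, a ratio of 17.8 (14.4 to 21.8), of which 1 barcode held 54 (2240 CPM with it and 1097 without), and Ifi30 35 UMIs in 10 of 13. Ccnd1, cyclin D1, had 29 UMIs in 10 of 13 (670 against 0.301 CPM). Itgax (CD11c) had 10 UMIs in 6 barcodes and Cd209a, a lectin of type 2 conventional dendritic cells, 9 UMIs in 4, 5 of them in 1 barcode. Of other listed dendritic cell genes, Flt3, Irf8 and Xcr1 had 0 UMIs in the 13, and Clec9a had 2, in 1 barcode. No light chain variable UMI was counted in any of the 13.

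Of 13 listed class II pathway genes 12 reached 25 CPM in this comparison and 11 were at least 2-fold higher, with a median log2 ratio of 4.41 against -0.14 over all genes. Of 11 genes shared by conventional dendritic cells, 8 reached 25 CPM and 7 were higher, with a median of 3.57. The background here was 17.9% of 5427 genes higher and 22.7% lower. T cell genes were lower in 8 of 12, with a median of -1.14, and Treg genes in 6 of 10. Nevertheless 8 of the 13 had 2 or more Cd3 UMIs and 6 had Foxp3.

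In the 12-day spleen the 12 comparable barcodes were shallower, at a median of 2086.5 UMIs against 3172, and had a median of 46.5 class II UMIs with a range of 20 to 271. Cst3 had 91 UMIs in 8 of 12, a ratio of 17.4 (14.0 to 21.4), and moved from 2251 to 1365 CPM without the barcode that held 38 of them. Also higher were Tyrobp, with 27 UMIs in 7 of 12, a ratio of 122 (78.2 to 184), and Plac8, with 21 UMIs in 10 of 12, a ratio of 131 (78.5 to 209). Plbd1 had 18 UMIs in 5 of 12 (445 against 0.835 CPM). Flt3 had 0 UMIs in the 12, and Itgax had 1. Pathway genes were higher in 7 of 10 at 25 CPM and shared dendritic genes in 6 of 8, where 16.0% of 5204 genes were higher and 24.0% lower. Of 14 proliferation genes 9 were higher, Top2a and Cdk1 among them, and Mki67 was lower. T cell genes were lower in 2 of 12. Cd3 UMIs numbered 2 or more in 6 of the 12 and Foxp3 was counted in 4. One of the 12, with 271 class II UMIs, had 16 Ccr7 UMIs, beside 20 Cd3 and 2 Foxp3 UMIs and no Ccl22 UMI.

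Set side by side, the spleen barcodes of the 2 ages differed at 29.8% of 4877 genes in favour of 12 days and 26.4% in favour of 7 weeks, where 25 CPM stands for 1.01 UMIs in the 12 younger barcodes together. Crip1, a small LIM domain protein, had 123 UMIs at 12 days (3042 CPM) and 17 at 7 weeks (393 CPM), a ratio of 7.75 (4.65 to 13.7). Lgals1, galectin-1, was 7.71 (3.02 to 25.2) times as high at 12 days, and Hist1h2ae, a replication histone, 5.89 (2.44 to 17.2) times. Ifi27l2a, an interferon-induced gene, was 4.53 (2.78 to 7.74) times as high at 7 weeks, with 97 against 20 UMIs. The 3 unmarked barcodes of the 12-day liver had 89, 517 and 43 class II UMIs and, in that order, 71, 10 and 26 Cd3 UMIs. The one with 517 had 21 Cd209a UMIs. The one with 43 had 18 Mki67 UMIs and no UMI of Tyrobp, Plbd1, Cd209a, Itgax or Flt3.

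The 47 unmarked barcodes of the 12-day spleen with 8 to 19 class II UMIs were unlike any other class in depth. Their median was 954 UMIs, 44 of them had under 1500 and 29 under 1000, and their class II level was 11.6 UMIs per 1000. T cell genes were not reduced, at 7.59 UMIs per 1000 against 7.29 in the other barcodes, 37 of 47 had 2 or more Cd3 UMIs and 17 had Foxp3. These shares were 78.7 and 36.2%, against 81.5 and 35.2% of the barcodes under 1500 UMIs that were not members. Of the genes with the highest ratios, the replication histone Hist1h2ab had 45 UMIs in 28 of 47, a ratio of 44.9 (32.4 to 60.8), and the histone Hist1h4d 56 UMIs in 33 of 47, a ratio of 42.4 (31.7 to 55.6). Pathway genes were at least 2-fold higher in 9 of 11 that reached 25 CPM, where 23.8% of 5743 genes were higher and 12.4% lower. Cst3 had 25 UMIs in 18 of 47 (478 against 129 CPM).

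The same RNA was present in shallow barcodes of this library that were not members. In the 12-day spleen 56 of 635 barcodes with under 1500 UMIs were members (8.82%), against 1.10% from 1500 to under 3000, 0.272% from 3000 to under 6000 and 2.07% from 6000 upward. In the barcodes under 1500 UMIs that were not members, the 3 chains summed to 179 CPM (147 to 217), against 1.59, 1.54 and 3.08 CPM in the deeper bins. Hist1h4d stood at 114 CPM (88.5 to 145), Tyrobp at 36.9 and Plbd1 at 16.8 in those shallow barcodes. Among them was 1 barcode of 1362 UMIs kept out by the macrophage limit, with 115 class II UMIs. Levels without it were not computed. No barcode of this library kept out by that limit had more than 47 chain UMIs, and the shallow barcodes that were not members held 107. The part of the 1 barcode in the Tyrobp and Plbd1 values is not known. In the 12-day liver the chains stood at 33.9 CPM (21.5 to 50.9) in shallow barcodes that were not members, with 1 member among 732, and in the 7-week spleen at 8.47 CPM (2.75 to 19.8), with 1 member among 492. Hist1h4d RNA was highest in the shallow bin of every library among barcodes that were not members, at 148 CPM (120 to 180) in the 12-day liver, 40.4 (24.4 to 63.2) in the 7-week liver and 33.9 (20.7 to 52.3) in the 7-week spleen, where the intervals of both 7-week libraries overlap that of the deepest bin. The part of low depth, and of the class II and histone RNA of shallow barcodes, in the 47 was not tested.

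**Figure D4:**
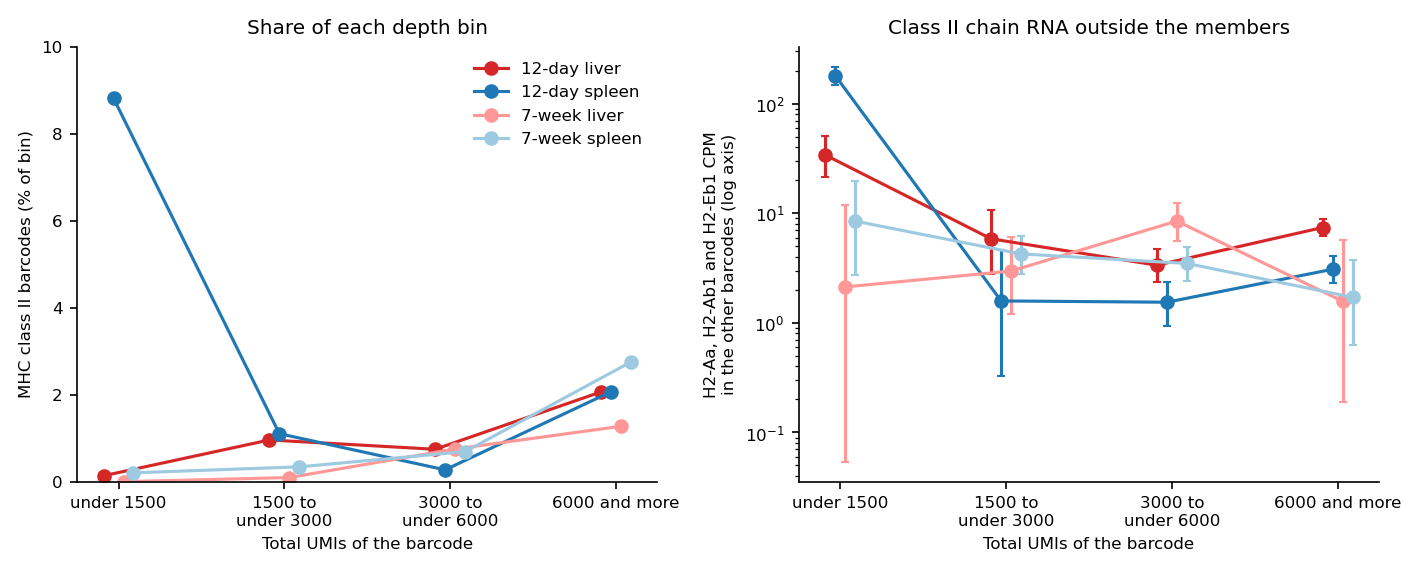
Left, members as a percentage of filtered barcodes in 4 bins of total UMIs per barcode, 1 line per library. Right, summed CPM of H2-Aa, H2-Ab1 and H2-Eb1 in the barcodes of each bin that were not members (log axis), with exact 95% Poisson intervals. The 12-day spleen stands at 179 CPM under 1500 UMIs and below 4 CPM in the other bins. Barcodes that were not members include those kept out by the macrophage limit. Among these, 1 with 1362 UMIs and 115 class II UMIs is in the shallowest 12-day spleen bin.

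The 86 barcodes in which Cd74 made up nearly the whole class II count were mostly T cell barcodes by their markers. They numbered 16, 39, 8 and 23 in the order 12-day liver, 12-day spleen, 7-week liver and 7-week spleen, and 15, 36, 8 and 23 of them had 2 or more Cd3 UMIs. Foxp3 was counted in 14, 26, 5 and 17. These were 87.5, 66.7, 62.5 and 73.9%, against 73.5, 70.0, 60.1 and 63.6% of the other barcodes. All 3 chain genes were at 0 in 15, 31, 7 and 15 of them. Most were deep barcodes. Median depths were 7460.5, 9374, 5083 and 5884 UMIs against 4430, 4549.5, 2659 and 2931 in the other barcodes. Their median class II level was 1.27, 1.11, 1.79 and 1.74 UMIs per 1000. Of the 86, 7 had under 1500 UMIs, 6 of them in the 12-day spleen. The part of high depth in reaching the minimum of 8 UMIs was not tested.

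Against the other barcodes, at most 1 of 12 T cell genes was at least 2-fold lower in any library of these 86, and none was higher. Of 10 Treg genes, 0, 1, 1 and 2 were at least 2-fold higher and 1, 1, 2 and 1 lower in the order of libraries given above. The backgrounds were 9.44% higher and 8.64% lower in the 12-day liver, 3.72% and 6.56% in the 12-day spleen, 18.4% and 18.9% in the 7-week liver, and 9.16% and 8.54% in the 7-week spleen. Cd83, which stabilises class II at the surface and is induced on activated lymphocytes, was higher in all 4. Its ratio was 2.45 (1.34 to 4.13) in the 12-day liver, 2.78 (2.22 to 3.44) in the 12-day spleen, 4.86 (2.40 to 8.78) in the 7-week liver and 5.17 (4.12 to 6.42) in the 7-week spleen. In the 7-week liver 1 of the 8 barcodes held 5 of 11 Cd83 UMIs, and the level moved from 258 to 163 CPM without it, against 53.0 in the other barcodes. Tnfrsf4 (OX40, a costimulatory receptor of effector Treg cells) had ratios of 1.64 (1.41 to 1.90), 2.23 (2.05 to 2.42), 2.08 (1.41 to 2.96) and 3.53 (3.10 to 3.99) in the same order. The ratio in the 7-week liver rested on 1 barcode with 20 of 31 Tnfrsf4 UMIs, without which the level was 290 CPM, below the 349 of the other barcodes. Foxp3 had ratios of 1.22 (0.951 to 1.54), 0.820 (0.681 to 0.978), 0.713 (0.389 to 1.20) and 0.877 (0.654 to 1.15). Ccr7, a receptor of resting, recirculating T cells, had ratios of 0.325 (0.140 to 0.641) in the 12-day liver, 0.410 (0.276 to 0.585) in the 12-day spleen and 0.152 (0.0414 to 0.390) in the 7-week spleen, and 0 UMIs in the 8 of the 7-week liver.

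Other leading genes of the 86 differed by library. In the 7-week spleen Batf, a transcription factor of effector Treg cells, had 63 UMIs in 17 of 23, a ratio of 3.25, Klrg1, a receptor of terminally differentiated cells, 46 UMIs in 9 of 23, a ratio of 5.64, and the chemokine receptor Ccr8 27 UMIs in 11 of 23, a ratio of 4.07. In the 12-day spleen Nrn1, neuritin, had 148 UMIs in 19 of 39, a ratio of 5.23 (4.40 to 6.18), Tnfsf11 (RANKL) 63 UMIs in 18 of 39, a ratio of 4.38 (171 CPM, and 89.8 without a barcode with 31 of them), and Odc1, the first enzyme of polyamine synthesis, 114 UMIs in 26 of 39, a ratio of 3.43. In the 12-day liver Tnfrsf9 (4-1BB) had 96 UMIs in 14 of 16, a ratio of 3.10 (2.51 to 3.79), and Ccr8 49 UMIs in 8 of 16, a ratio of 2.59 (1.91 to 3.42), which moved from 376 to 219 CPM without a barcode with 25 of them. In the 7-week liver Klrg1 had 27 UMIs in 6 of 8, a ratio of 5.44. Some values rested on few barcodes: Penk, an opioid precursor, had 277 UMIs in 14 of 39 in the 12-day spleen and 106 in 6 of 23 in the 7-week spleen, 65 of them in 1, and Cxcl10 had 26 UMIs in 3 of 23, 23 of them in 1.

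Between libraries, all unmarked barcodes together could be compared for tissue and for age. Among 5400 genes, the 12-day liver was at least 2-fold above the 12-day spleen at 585 (10.8%) and below it at 419 (7.76%), which became 448 and 512 under TMM scaling, so the balance of the 2 directions depended on the scaling. Of 5585 genes 588 (10.5%) were higher in the 12-day spleen than in the 7-week spleen and 756 (13.5%) were lower, which became 661 and 635. Median depths of the unmarked barcodes were 7790, 1263 and 4437 UMIs in the 12-day liver, 12-day spleen and 7-week spleen, and the classes within them differed as given above. Ccr2, a receptor for monocyte chemokines, was the gene with the highest ratio in the liver, at 22 UMIs in 9 of 25 against 1 UMI in 98 (46.6, 7.54 to 1924); 1 barcode held 11 of the 22. Nkg7, a granule protein of cytotoxic cells, had 146 UMIs in 7 of 25 in the liver and 38 in 13 of 98 in the spleen, a ratio of 8.14 (5.67 to 12.0); without the barcode with most UMIs the levels were 394 and 46.1 CPM. Cxcl10 was 31.3 (7.84 to 272) times as high in the 7-week spleen as in the 12-day spleen but came from the 3 barcodes named above, and Jun, an early response transcription factor, 8.95 (3.78 to 24.4) times, from 16 of 37 against 7 of 98 barcodes.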

How the data were processed

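Each deposited matrix holds unnormalised UMI counts of genes in barcodes. Per the file headers the authors used Cell Ranger 4.0.0, and the submitters' processing notes name the build mm10 and Seurat 4.0.2. The kit counts the 5′ part of transcripts, per the labels' protocols. The members, classes and gene lists were chosen with earlier results of these data known, and the split of unmarked barcodes, the split at Cd3 UMIs, the bins of depth, the levels without the barcode that held most UMIs of a gene, and the comparisons of classes with 7 to 9 barcodes were chosen after seeing the data.

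Barcodes were filtered and assigned with the limits given in the report. UMIs of a set were summed and expressed as counts per 1000000 UMIs (CPM). A gene was called at 25 CPM or more in the higher set and a ratio of 2 or more; genes used by the rule stayed out of these counts. Ratios have exact conditional binomial 95% intervals, levels exact Poisson and shares Clopper-Pearson intervals. Genes are named as the 10 highest and 10 lowest ratios with 20 or more UMIs in a comparison of members or a class with the other barcodes (5 between libraries), leaving out immunoglobulin and T cell receptor variable segments, genes without a name, and those that are sex-linked or encode ribosomal, mitochondrial or haemoglobin RNA, and to these were added members of the lists; 269 of 271 listed genes were found. Scrublet's automatic threshold marked 0% of barcodes and so had not worked, so barcodes were ranked by score and as many marked as the expected rate gives, and none was removed. The script was tested on simulated data. Python 3.11.15, numpy 2.4.6, scipy 1.17.1, pandas 2.3.3, scanpy 1.11.5 and edgeR 4.0.16 (TMM factors only) were used.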

Additional observations from a re-analysis of the deposited data

How the results depend on the processing

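The share of members followed the limits. In the order 12-day liver, 12-day spleen, 7-week liver and 7-week spleen it was 1.92, 3.32, 0.990 and 1.58% with a minimum of 5 class II UMIs, 0.812, 0.939, 0.0825 and 0.349% with a minimum of 12, and 0.318, 0.421, 0 and 0.116% without members that had 2 or more Cd3 UMIs. In the 12-day spleen it was 0.940% with 1000 genes per barcode and, an alternative chosen after seeing the data, 0.974% in barcodes with 1500 or more UMIs. Without members that had 2 or more Cd3 UMIs the B cell class of the 12-day liver held 13 barcodes, the dendritic class 4 there and 5 in the 12-day spleen (also 5 at 2 or more UMIs), and unmarked barcodes 19 in the 12-day spleen and 5 in the 7-week spleen.

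Counts of genes moved with the CPM minimum, with thinning and with the sets compared. For members against the other barcodes of the 12-day liver (287 higher, 172 lower) they were 1646 and 6514 with no minimum, 140 and 67 at 50 CPM, 1051 and 912 after thinning to 1000 UMIs and 1268 and 1473 without Cd3 members, with 315 lower at a minimum of 12 class II UMIs. For the 12-day spleen (174 and 159) they were 1726 and 6120, 83 and 66, 1039 and 850, 1140 and 1232, and 362 and 321 in that order. For the 7-week spleen (417 and 390) they were 1602 and 6895 with no minimum, 164 and 134 at 50 CPM, 1743 and 1203 thinned and 706 and 959 at a minimum of 12, with 656 lower when totals left out ribosomal, mitochondrial, haemoglobin and immunoglobulin genes. For unmarked barcodes of the 12-day liver against the 12-day spleen they were 2240 and 2708 with no minimum, 283 and 150 at 50 CPM and 2065 and 1790 thinned, with 694 lower under those totals. For the 12-day against the 7-week spleen they were 3026 and 2349 with no minimum, 264 and 302 at 50 CPM and 1744 and 1875 thinned, with 1110 higher at a minimum of 12. Thinning and smaller sets leave fewer UMIs per gene; beyond that the cause was not tested. Over all settings but those chosen after seeing the data 65 values moved and 65 did not, and over the latter 1 moved and 7 did not. Alternatives that left a set with fewer than 10 barcodes were not run, nor were the planned comparisons of B cell with dendritic class and of the B cell class between libraries, for the same reason. No paired analysis was possible because each group is 1 library.

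Depth limits these results: each class has 1 to 47 barcodes in a library, and genes with few UMIs were not resolved. Sets defined by UMI minimums favour deep barcodes, and Scrublet's threshold, the 1 doublet caller tried, did not work. T cell RNA was present in 170 of 221 members, so levels of the classes are those of barcodes, not of pure cells.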
